A study of Mus musculus with 11 samples.

Results

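The interferon-stimulated genes described here are 41 mouse genes listed by name, from the transcription factors of the interferon pathway to its antiviral effectors. A gene was represented by the array row annotated to its symbol alone, and by the row with the highest mean where there were several. Of the 41 genes, 39 had such a row, out of 30142 genes with a row of their own in the whole table. Ifi27 appears only on a row that carries a second symbol, and Ifi44 had no row under its own symbol, so neither is given a value. A further 4 genes, Oas2, Oas3, Oasl2 and Ifi27l2a, lay below the level filter for testing, which left 35 tested genes.

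Total RNA of hepatocytes from 12-week-old male mice was hybridised to 11 expression arrays, 1 sample per array. The groups were wildtype (2 arrays, source name Nemo cre-), loss of Nemo from the parenchymal cells of the liver (Nemo KO, 3 arrays, source name Nemo cre+), deletion of Cxcr6 (Cxcr6 KO, 3 arrays, source name Nemo_CXCR6 cre-) and both deletions together (double KO, 3 arrays, source name Nemo_CXCR6 cre+). The source names place Cxcr6 KO and double KO in one mouse line and wildtype and Nemo KO in another, so the loss of Cxcr6 and the line cannot be told apart. The driver of the cre and the genetic background were not given in the sources used here. Replicates are labelled biological without a statement that each is a separate mouse, so p-values measure only the spread between these samples.

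Interferons are secreted antiviral proteins that act through paired receptor chains and JAK kinases. Type I interferons activate a complex that contains STAT2 and IRF9 and binds the interferon-stimulated response element (ISRE), whereas interferon gamma acts mainly through the gamma-activated sequence (GAS). The genes switched on in this way sense foreign nucleic acid, block translation or viral budding, or attack the vacuoles of intracellular pathogens, and liver cells respond to both types. NEMO, encoded by Ikbkg, is the regulatory subunit of the IKK complex, which activates NF-kB, and CXCR6 is a chemokine receptor of T and natural killer T cells.

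Values are log2 signals, on which a difference of 1 is a doubling, and levels of different genes cannot be compared on this scale. Column medians lay between 5.19 and 5.38; precision is limited by how few arrays there are. Ikbkg itself stayed between 8.76 and 9.49 and Cxcr6 between 4.94 and 5.56 over the 11 arrays without a call in any comparison, and since it is not known here which probes lie in the deleted parts, these rows do not check the labels. The mean of 9 hepatocyte markers was between 17.57 and 17.91 in every array, although single markers differed between the wildtype arrays by -0.75 (Asgr1) to 1.13 (Tat). Lists for T cells (7 genes), B cells (6) and monocytes and dendritic cells (10) had means of at most 5.25, while Kupffer cell and macrophage markers (15 genes) ranged from 6.40 to 8.69, endothelial markers (13) from 6.28 to 8.54 and stellate cell markers (11) from 5.61 to 7.18. In samples of bulk RNA, fewer cells of a type and less RNA per cell cannot be told apart. The 2 wildtype arrays correlated at 0.984 with each other over all 65956 array rows, against 0.990 to 0.995 for pairs within the other groups.

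Few of the interferon-stimulated genes differed between the 4 genotypes past the threshold, and those that stood out did so in separate ways. Stat2 was lower and Trim12a was higher in all 6 arrays from the Cxcr6-deleted line than in all 5 Cxcr6-intact arrays. The guanylate-binding proteins and immunity-related GTPases were high in wildtype array 2 alone. Deletion of Nemo with Cxcr6 intact changed none of them past the threshold.

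There were 5 comparisons, fitted with limma, and a gene was called at an adjusted p under 0.05 over all 18337 tested genes. In Nemo KO against wildtype 0 of the 35 genes were called, where 0.158% of all genes were called (0.0491% higher and 0.109% lower). At an unadjusted p under 0.05 there were 4 of 35, or 11.4%, against 24.6% of all genes. In double KO against Cxcr6 KO 2 genes, Stat2 and Trim12a, were called higher and none lower, against 7.41% of all genes (3.44% higher and 3.96% lower). This share is close to the background, and 10 of 35 passed the unadjusted threshold (28.6%, against 29.1% of all genes). Where arrays of a knockout group are said below to lie apart from another, the share of all genes doing so was not counted.

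In double KO against Nemo KO 1 gene, Trim12a, was called higher, against 0.594% of all genes (0.365% higher and 0.229% lower). In Cxcr6 KO against wildtype 2 genes were called, Trim12a higher and Stat2 lower, against 0.256% of all genes (0.175% higher and 0.0818% lower). The interaction, the difference of double KO from Cxcr6 KO less that of Nemo KO from wildtype, gave 0 of 35 called and 0% of all genes, with 5 of 35 at an unadjusted p under 0.05 (14.3%, against 11.8% of all genes). That unadjusted count was 5 of 35 (14.3%, against 16.8%) in double KO against Nemo KO and 7 of 35 (20%, against 11.1%) in Cxcr6 KO against wildtype. These comparisons share arrays: wildtype enters 2 of the pairwise ones and double KO another 2.

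The median log2 change of the 35 genes was -0.13 in Nemo KO against wildtype, with a median of -0.04 for all tested genes. It was 0.18 in double KO against Cxcr6 KO (all genes -0.06), 0.09 in double KO against Nemo KO (all genes 0.04) and -0.26 in Cxcr6 KO against wildtype (all genes 0.01). In the interaction it was 0.25 (all genes 0.04), and 30 of the 35 genes had a positive value. Both comparisons with wildtype and the interaction depended on which wildtype array was used. Without wildtype array 1 the counts were 5 called in Nemo KO against wildtype (1.01% of all genes), 9 in Cxcr6 KO against wildtype (2.68%) and 6 in the interaction (1.26%). Without wildtype array 2 they were 2 (12.9% of all genes), 3 (1.96%) and 0 (0.467%). Cxcr6 KO against wildtype gave 0 called without Cxcr6 KO array 2 (0.0435% of all genes) and 1 without Cxcr6 KO array 3 (0.0488%).

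**Figure D1:**
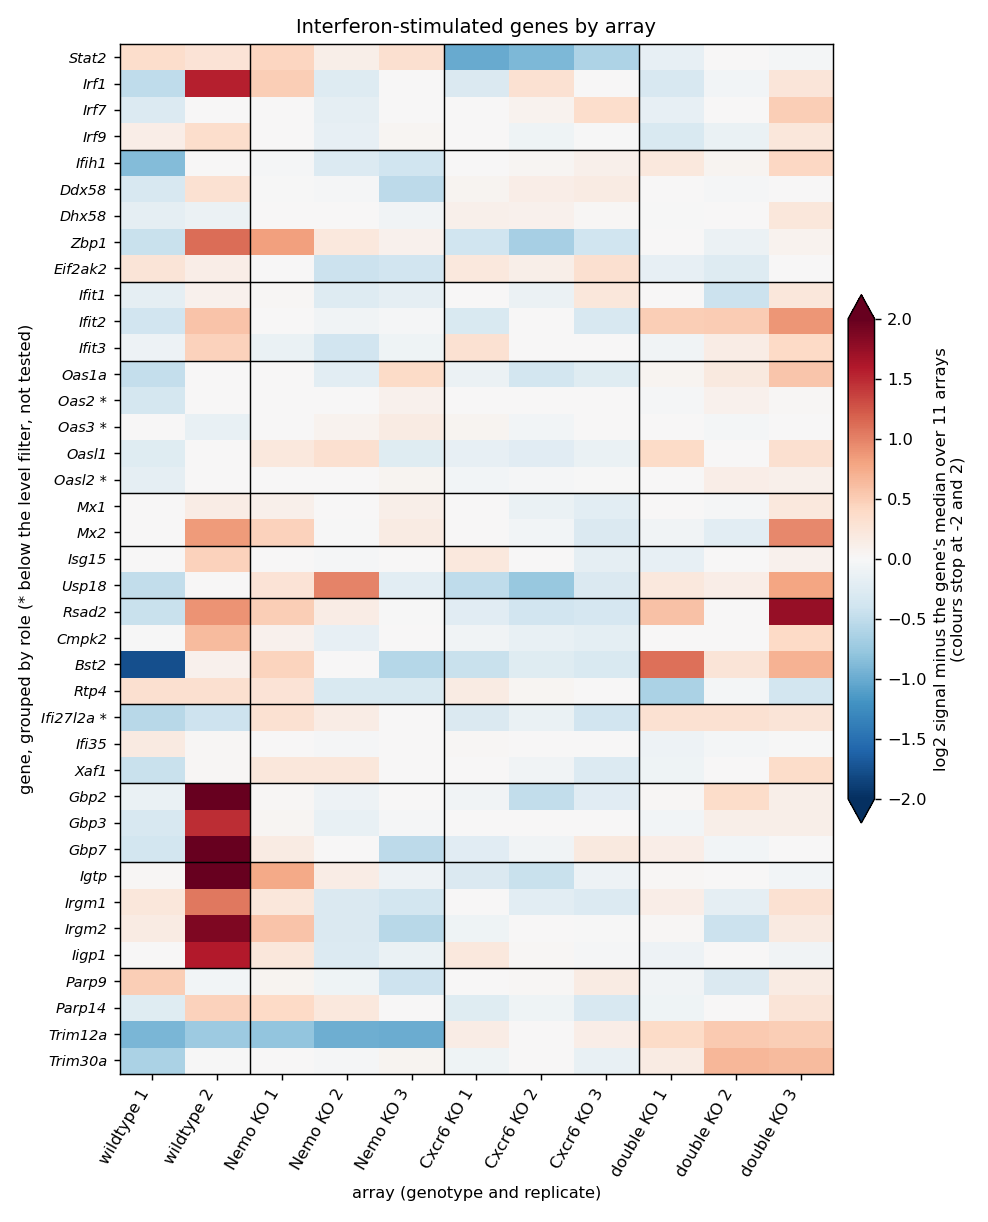
Log2 signal of the 39 interferon-stimulated genes with a row of their own (vertical axis, grouped by role) in each of the 11 arrays (horizontal axis), coloured by the difference from the gene's median over all arrays, from blue (lower) to red (higher), with colours stopping at a difference of -2 and 2. Wildtype array 2 is the highest of 11 arrays for 16 of the 39 genes, Stat2 is lowest in the 3 Cxcr6 KO arrays, and Trim12a is higher in the 6 arrays to the right than in the 5 to the left.

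Upstream of the response, Ifngr1 was the only gene called in any comparison among the interferon, receptor and JAK-STAT genes listed outside the 41. Stat2, which is among the 41, was called and is described below. Of 21 listed interferon genes 18 had a row and 8 were tested, and the mean of the 18 stayed between 4.84 and 5.07, below the column medians. Ifng, which encodes interferon gamma, was between 3.95 and 4.21 in all arrays and below the filter, and Ifnb1, which encodes interferon beta, was between 4.90 and 5.68. Ifna4 had the smallest p among the ligands, with a change of 0.50 ± 0.16 (SE; adjusted p = 0.104) in Nemo KO against wildtype.

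Of the 5 tested receptor genes, both chains of the type I receptor were measured well above the array medians. Ifnar1 lay between 10.36 and 11.16 and Ifnar2 between 11.36 and 11.89, and all groups overlapped for Ifnar1. Ifngr2, the signalling chain of the interferon gamma receptor, was between 8.38 and 9.15. Ifngr1, its ligand-binding chain, had log2 signals of 9.16 and 10.04 in wildtype, 9.88, 10.30 and 9.84 in Nemo KO, 8.45, 9.06 and 8.92 in Cxcr6 KO and 9.98, 9.93 and 11.02 in double KO. All 3 Cxcr6 KO arrays were below every other array for Ifngr1, and the highest value was in double KO array 3. Ifngr1 rose by 1.502 ± 0.33 (SE; adjusted p = 0.0333) in double KO against Cxcr6 KO. That call was lost without Cxcr6 KO array 1, 2 or 3 (adjusted p = 0.0848, 0.0827 and 0.10), without double KO array 2 or 3 (0.0518 and 0.0848), without Nemo KO array 1 (0.0535) and without the filter on low values (0.0519).

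Outside the 41 genes, none of 6 tested JAK-STAT genes, 12 genes of nucleic acid sensing and relay and 11 negative regulators was called in any comparison. Socs1, a feedback inhibitor of JAK kinases, was between 4.50 and 4.79 and was not tested. Stat5a, a STAT of growth hormone and cytokine receptors, ran from 7.71 to 8.33. Pias1, an inhibitor of the pathway, had a log2 difference of -0.50 ± 0.11 (SE; adjusted p = 0.0661) in Nemo KO against wildtype. Myd88, the adaptor of most Toll-like receptors, differed by -0.72 ± 0.20 (SE; adjusted p = 0.0837) in the same comparison, and Irf3, which relays viral RNA sensing to the interferon genes, by -0.28 ± 0.11 (SE; adjusted p = 0.154).

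Stat2, which encodes a subunit of the ISRE-binding complex, separated the Cxcr6-deleted line from the other arrays. Its log2 signals were 10.96 and 10.87 in wildtype, 11.02, 10.72 and 10.92 in Nemo KO, 9.59, 9.70 and 9.98 in Cxcr6 KO and 10.44, 10.60 and 10.56 in double KO. The 3 Cxcr6 KO arrays were the lowest, the 3 double KO arrays came next, and all 6 lay below the 5 Cxcr6-intact arrays (9.59 to 10.60 against 10.72 to 11.02). That pattern held for 1 of the 35 genes and for 0.322% of all tested genes. Stat2 fell by 1.16 ± 0.13 (SE) on the log2 scale in Cxcr6 KO against wildtype (limma adjusted p = 0.0114). It rose by 0.78 ± 0.12 (SE; adjusted p = 0.0132) in double KO against Cxcr6 KO. The difference of double KO from Nemo KO, -0.35 ± 0.12 (SE; adjusted p = 0.204), did not pass, and neither did the interaction, 0.81 ± 0.18 (SE; adjusted p = 0.252).

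The fall in Cxcr6 KO was no longer called without Cxcr6 KO array 2 (-1.13, adjusted p = 0.0616), with array weights (0.0654) or in a fit of these groups alone (0.269). The rise in double KO over Cxcr6 KO was no longer called without Cxcr6 KO array 2 (0.75, adjusted p = 0.0539) or without double KO array 3 (0.77, adjusted p = 0.0508). In RefSeq order on chromosome 10, none of the 5 genes on either side of Stat2 was called in the comparisons of Cxcr6-deleted with Cxcr6-intact groups; these neighbours were looked at after the values of Stat2 were seen. The Stat2 promoter window is printed because Stat2 is the one member that was lower throughout the Cxcr6-deleted line. It spans chr10:128270248-128270547 on the plus strand of GRCm38.p6, from 250 bases before to 50 bases after the annotated start, and is taken from RefSeq. Capitals mark a match to the ISRE core, GAAANNGAAA read on either strand, which starts at -222 from the start of transcription.
Stat2: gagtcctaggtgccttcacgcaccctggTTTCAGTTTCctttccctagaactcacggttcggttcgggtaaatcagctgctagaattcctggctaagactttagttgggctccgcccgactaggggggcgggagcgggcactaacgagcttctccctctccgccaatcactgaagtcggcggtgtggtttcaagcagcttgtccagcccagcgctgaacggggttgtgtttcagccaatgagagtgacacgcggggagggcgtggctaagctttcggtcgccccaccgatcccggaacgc

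The other factors were not called in any comparison. Irf9, the DNA-binding part of the complex with STAT2, ran from 7.37 to 8.04, with both wildtype arrays above all others except double KO array 3. Irf7, which drives interferon alpha genes, had log2 signals of 7.18 and 7.44 in wildtype, 7.44, 7.26 and 7.44 in Nemo KO, 7.44, 7.52 and 7.79 in Cxcr6 KO and 7.28, 7.44 and 7.94 in double KO, and all groups overlapped. Irf1, a factor that interferon gamma induces, had log2 signals of 6.84 and 8.90 in wildtype, 7.83, 7.08 and 7.34 in Nemo KO, 7.05, 7.65 and 7.34 in Cxcr6 KO and 7.02, 7.29 and 7.59 in double KO. Wildtype array 2 was the highest and wildtype array 1 the lowest of the 11 for Irf1, 2.07 apart, and the other groups lay between them.

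The sensors of foreign nucleic acid gave no call with all arrays. Eif2ak2, which encodes the translation-blocking kinase PKR, had log2 signals of 9.86 and 9.74 in wildtype, 9.60, 9.17 and 9.22 in Nemo KO, 9.81, 9.72 and 9.92 in Cxcr6 KO and 9.44, 9.35 and 9.60 in double KO. All 6 Nemo-deleted arrays were below all 5 Nemo-intact arrays, which held for 1 of the 35 members and 7.12% of all tested genes. The reverse, all Nemo-deleted arrays above all Nemo-intact ones, was seen for 0 of the 35 members and 2.03% of all tested genes. The change of Eif2ak2 was -0.47 ± 0.14 (SE; adjusted p = 0.0973) in Nemo KO against wildtype and -0.35 ± 0.13 (SE; adjusted p = 0.108) in double KO against Cxcr6 KO. Ifih1, which encodes the RNA sensor MDA5, had log2 signals of 8.90 and 9.77 in wildtype, 9.74, 9.49 and 9.37 in Nemo KO, 9.77, 9.82 and 9.88 in Cxcr6 KO and 9.98, 9.83 and 10.18 in double KO. Wildtype array 1 was the lowest for Ifih1, and the Nemo KO arrays lay below the Cxcr6 KO and double KO arrays, which overlapped. Without wildtype array 2 it was called higher in Cxcr6 KO, by 0.93 (adjusted p = 0.0386), and with both wildtype arrays the difference was 0.49 ± 0.23 (SE; adjusted p = 0.478).

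Zbp1, a sensor of Z-form nucleic acid that can start necroptosis, had log2 signals of 6.61 and 8.17 in wildtype, 7.88, 7.27 and 7.14 in Nemo KO, 6.65, 6.38 and 6.66 in Cxcr6 KO and 7.05, 6.94 and 7.13 in double KO. Wildtype array 2 was the highest, wildtype array 1 was level with the Cxcr6 KO arrays, and the Nemo KO and double KO arrays lay between. In Cxcr6 KO against wildtype the value for Zbp1 was -0.83 ± 0.39 (SE; adjusted p = 0.483) with both wildtype arrays, -1.61 (adjusted p = 0.0226) without wildtype array 1 and -0.04 without wildtype array 2. In double KO against Cxcr6 KO Zbp1 was called only in the fit of these groups alone, where 15.1% of all genes were called. Dhx58, which encodes LGP2, was nearly flat, with log2 signals of 6.98 and 7.05 in wildtype, 7.16, 7.16 and 7.09 in Nemo KO, 7.26, 7.24 and 7.18 in Cxcr6 KO and 7.14, 7.16 and 7.39 in double KO. Ddx58, which encodes the viral RNA sensor RIG-I, ran from 8.56 in Nemo KO to 9.4 in wildtype array 2.

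Among genes whose products bind or degrade viral RNA, Ifit2 had the smallest p in double KO against Cxcr6 KO, and it did not pass the threshold. Ifit2 belongs to a family that recognises foreign 5′ ends of RNA, and its log2 signals were 5.11 and 6.06 in wildtype, 5.49, 5.42 and 5.46 in Nemo KO, 5.19, 5.50 and 5.17 in Cxcr6 KO and 5.99, 5.997 and 6.38 in double KO. The 3 double KO arrays lay above all Cxcr6 KO and Nemo KO arrays, and wildtype array 2 lay among them. The difference was 0.83 ± 0.22 (SE; adjusted p = 0.0530) in double KO against Cxcr6 KO and 0.66 ± 0.22 (SE; adjusted p = 0.204) in double KO against Nemo KO. The first of these was called without either wildtype array, which raised the share of all genes called. It was also called with array weights (25.6% of all genes), after quantile normalization (9.57%) and in a fit of these groups alone (15.1%). The interaction for Ifit2 was 0.96 ± 0.33 (SE; adjusted p = 0.339), and 1.44 (adjusted p = 0.0261) without wildtype array 1. Ifit3 had log2 signals of 7.43 and 7.99 in wildtype, 7.39, 7.16 and 7.45 in Nemo KO, 7.84, 7.54 and 7.53 in Cxcr6 KO and 7.46, 7.68 and 7.94 in double KO. The Nemo KO arrays were below the Cxcr6 KO and double KO arrays, and wildtype array 2 was the highest. Ifit1 ran from 6.51 to 7.17, and all its groups overlapped.

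In the OAS family, whose products make the signal that activates RNase L, Oas1a and the related Oasl1 were tested. Log2 signals of Oas1a were 5.55 and 6.02 in wildtype, 6.02, 5.81 and 6.40 in Nemo KO, 5.90, 5.66 and 5.78 in Cxcr6 KO and 6.08, 6.22 and 6.57 in double KO, and double KO lay above Cxcr6 KO without overlap. That difference, 0.51 ± 0.19 (SE; adjusted p = 0.118), was not called. In this comparison 29.1% of all genes had an unadjusted limma p under 0.05. Oasl1 had log2 signals of 6.73 and 6.98 in wildtype, 7.18, 7.30 and 6.74 in Nemo KO, 6.82, 6.75 and 6.84 in Cxcr6 KO and 7.37, 6.98 and 7.31 in double KO, and double KO was again above Cxcr6 KO, by 0.42 ± 0.16 (SE; adjusted p = 0.124). Both genes were called in this comparison with array weights, where 25.6% of all genes were called. Oas2, Oas3 and Oasl2 stayed within 4.59 to 5.12 over all arrays. Mx2, a dynamin-like GTPase that blocks incoming virus, had log2 signals of 6.998 and 7.84 in wildtype, 7.46, 6.99 and 7.16 in Nemo KO, 7.01, 6.95 and 6.71 in Cxcr6 KO and 6.93, 6.79 and 7.95 in double KO. Double KO array 3 and wildtype array 2 were the highest for Mx2, apart from the other arrays of their groups. Mx1, of the same family, stayed within 5.04 to 5.46.

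Isg15, a ubiquitin-like modifier, ran from 6.25 to 6.88 with overlapping groups. Usp18, the protease that removes ISG15 and dampens the type I receptor, had log2 signals of 7.91 and 8.40 in wildtype, 8.67, 9.398 and 8.195 in Nemo KO, 7.89, 7.64 and 8.11 in Cxcr6 KO and 8.62, 8.54 and 9.19 in double KO. The Nemo-deleted arrays were above all Nemo-intact arrays except for Nemo KO array 3. The change was 0.90 ± 0.30 (SE; adjusted p = 0.0933) in double KO against Cxcr6 KO and 0.60 ± 0.34 (SE; adjusted p = 0.316) in Nemo KO against wildtype, and neither was called. In a fit of double KO and Cxcr6 KO alone Usp18 was called (adjusted p = 0.0418), as it was with array weights (0.0175) and without Nemo KO array 2 (0.0418). Of all genes 15.1%, 25.6% and 11.9% were called in these fits, in that order.

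Of the effectors at membranes and in lipid metabolism, Bst2 and Rsad2 spread widely between the wildtype arrays. Outside wildtype the widest range was in Nemo KO for Bst2 and in double KO for Rsad2. Bst2, which encodes tetherin, a protein that holds budding virus at the cell surface, had log2 signals of 12.65 and 14.50 in wildtype, 14.85, 14.41 and 13.84 in Nemo KO, 13.96, 14.17 and 14.10 in Cxcr6 KO and 15.50, 14.67 and 15.10 in double KO. Wildtype array 1 was the lowest of the 11 and 1.84 below wildtype array 2, and the 3 double KO arrays were above all 3 Cxcr6 KO arrays. The difference of double KO from Cxcr6 KO was 1.02 ± 0.44 (SE; adjusted p = 0.162). It was called without wildtype array 1 or 2, which raised the share of all genes called. In a fit of these groups alone it was called as well (adjusted p = 0.0314), where 15.1% of all genes were called. In Nemo KO against wildtype the value was 0.79 ± 0.49 (SE; adjusted p = 0.360) with both wildtype arrays, -0.13 without wildtype array 1 and 1.71 (adjusted p = 0.0296) without wildtype array 2.

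Rsad2, which encodes viperin, had log2 signals of 7.23 and 8.56 in wildtype, 8.15, 7.81 and 7.66 in Nemo KO, 7.45, 7.29 and 7.33 in Cxcr6 KO and 8.25, 7.67 and 9.41 in double KO. Double KO array 3 was the highest and wildtype array 2 the next, and the 3 Cxcr6 KO arrays were below every double KO array. The difference was 1.09 ± 0.44 (SE; adjusted p = 0.141), which did not pass. Cmpk2, its neighbour, which encodes a nucleotide kinase, ran from 6.01 to 6.84.

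Rtp4, an interferon-induced chaperone gene, had log2 signals of 7.67 and 7.67 in wildtype, 7.62, 7.04 and 7.04 in Nemo KO, 7.51, 7.39 and 7.35 in Cxcr6 KO and 6.72, 7.31 and 6.98 in double KO. The 5 lowest values were all in Nemo-deleted arrays, and the difference of -0.41 ± 0.18 (SE; adjusted p = 0.175) in double KO against Cxcr6 KO was not called. Xaf1, which encodes a partner of the apoptosis inhibitor XIAP, had log2 signals of 6.62 and 7.09 in wildtype, 7.28, 7.29 and 7.06 in Nemo KO, 7.06, 6.99 and 6.79 in Cxcr6 KO and 6.97, 7.06 and 7.42 in double KO. Wildtype array 1 was the lowest for Xaf1, and the value of 0.36 ± 0.18 (SE; adjusted p = 0.252) in Nemo KO against wildtype did not pass. Ifi35 was the flattest member of its group, with log2 signals of 7.70 and 7.55 in wildtype, 7.53, 7.505 and 7.53 in Nemo KO, 7.55, 7.53 and 7.53 in Cxcr6 KO and 7.43, 7.49 and 7.53 in double KO. Ifi27l2a, below the filter, was at 4.12 and 4.26 in wildtype, 4.97, 4.82 and 4.68 in Nemo KO, 4.38, 4.55 and 4.29 in Cxcr6 KO and 4.99, 4.98 and 4.94 in double KO; its Nemo-deleted arrays were above its Nemo-intact arrays, at levels under the column medians. Without the level filter it was called higher in double KO against Cxcr6 KO, where 3.08% of all genes were called.

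**Figure D2:**
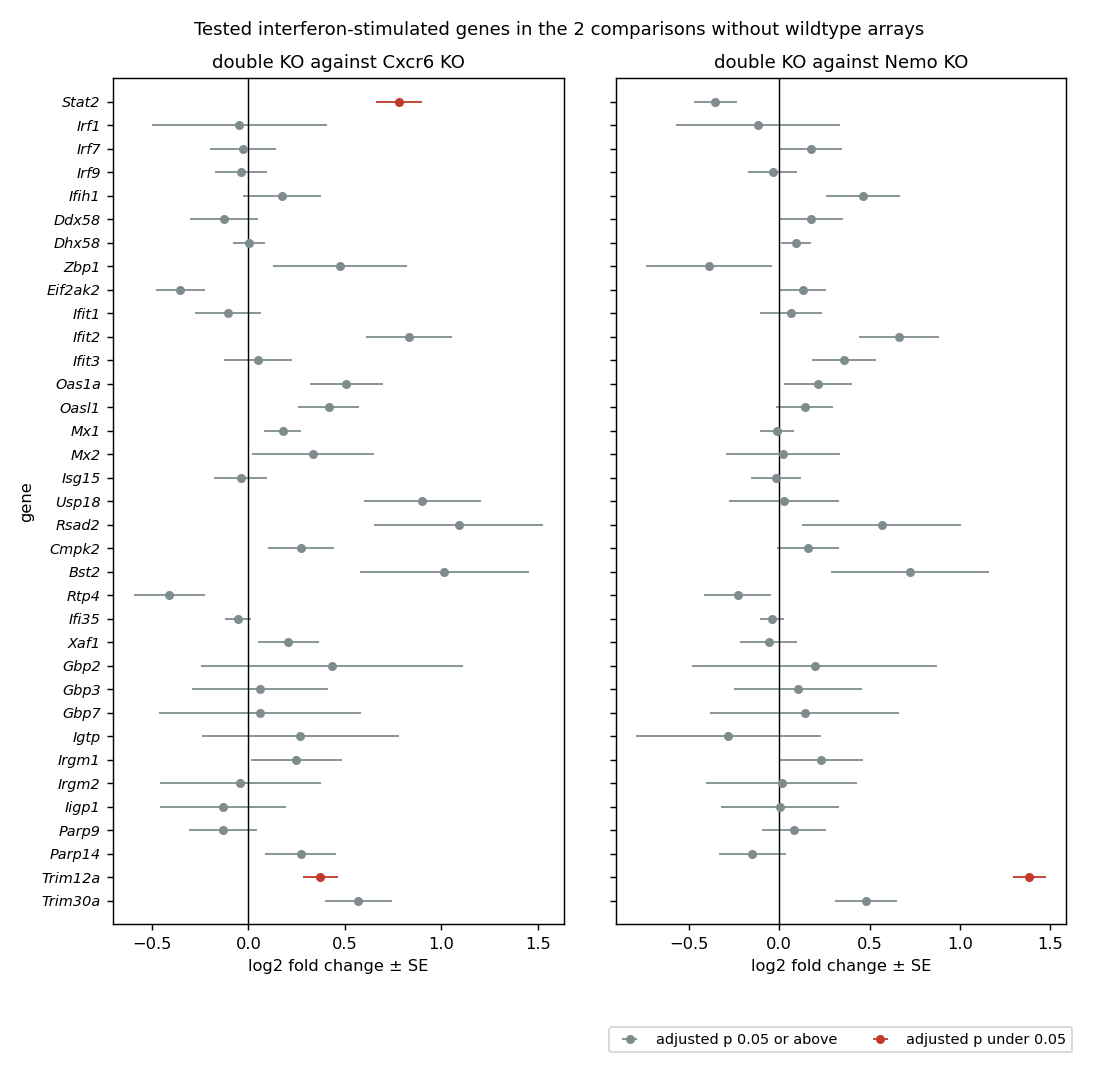
Log2 fold change ± SE (horizontal axis) of each of the 35 tested genes (vertical axis) in double KO against Cxcr6 KO (left) and in double KO against Nemo KO (right), with errors from the fit over all 11 arrays. The called genes, in red, are Stat2 and Trim12a on the left and Trim12a on the right; the errors of the GTPase genes are wide because the fit pools the spread of all groups, wildtype included.

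The guanylate-binding proteins (Gbp2, Gbp3, Gbp7) and the immunity-related GTPases (Igtp, Irgm1, Irgm2, Iigp1) are GTPases that interferon gamma induces strongly and that act on vacuoles of intracellular pathogens. In these data they set wildtype array 2 apart from every other array. Gbp2 had log2 signals of 6.05 and 9.54 in wildtype, 6.20, 6.08 and 6.18 in Nemo KO, 6.11, 5.69 and 5.95 in Cxcr6 KO and 6.20, 6.55 and 6.30 in double KO. Wildtype array 2 was 3.49 above wildtype array 1, an 11.2-fold difference between arrays of one group, while the 10 others stayed within 5.69 to 6.55. Gbp7 had log2 signals of 9.16 and 11.75 in wildtype, 9.70, 9.53 and 9.01 in Nemo KO, 9.30, 9.46 and 9.72 in Cxcr6 KO and 9.66, 9.47 and 9.53 in double KO, with the same single high array. Igtp, also called Irgm3, had log2 signals of 10.51 and 12.99 in wildtype, 11.24, 10.63 and 10.38 in Nemo KO, 10.19, 10.04 and 10.37 in Cxcr6 KO and 10.50, 10.48 and 10.42 in double KO. Wildtype array 2 was again far above the rest for Igtp, and the Nemo KO arrays were above the Cxcr6 KO arrays.

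Irgm2, a regulatory member of the immunity-related GTPases, had log2 signals of 8.78 and 10.49 in wildtype, 9.19, 8.34 and 8.07 in Nemo KO, 8.53, 8.62 and 8.61 in Cxcr6 KO and 8.65, 8.19 and 8.80 in double KO. Nemo KO array 1 came next after wildtype array 2, and the 3 knockout groups overlapped. For Gbp3, Iigp1 and Irgm1 wildtype array 2 was 1.799, 1.58 and 0.82 above wildtype array 1. All 7 genes of both families had their highest value in wildtype array 2, as had 16 of the 35 tested members and 8.87% of all tested genes. Wildtype array 2 exceeded every other array by over 1 log2 unit for 6 of the 7 GTPase genes and for Irf1, and for 0.256% of all tested genes.

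Over the 35 tested genes, wildtype array 2 was above wildtype array 1 by over 1 log2 unit for 10 genes and below it by that much for 0, against 3.77% and 2.77% of all tested genes. The 10 were 6 GTPase genes with Irf1, Bst2, Zbp1 and Rsad2, and the median difference was 0.62 over the 35 genes, against -0.03 over all tested genes. Outside the GTPase families 4 of 28 genes passed 1 log2 unit, with a median of 0.47. In all, 31 of the 35 genes were higher in wildtype array 2, and the lowest difference was that of Parp9 (-0.55). No test is possible between single arrays.

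**Figure D3:**
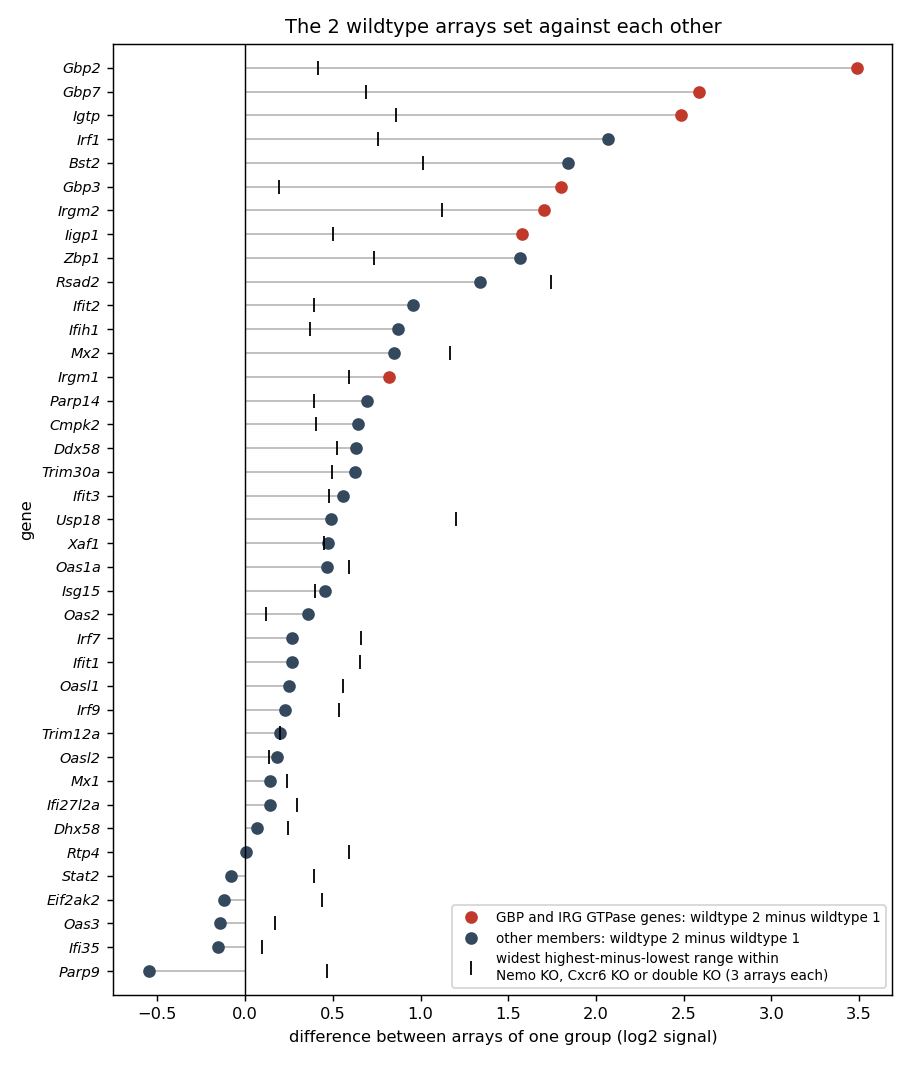
Difference of wildtype array 2 from wildtype array 1 in log2 signal (horizontal axis) for each of the 39 genes with a row (vertical axis), with red points for the GBP and IRG genes and black ticks for the widest range among 3 arrays of any other group. Gbp2 has the largest difference, 3.49, and all 7 GTPase genes lie to the right of their tick.

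Comparisons of the GTPase genes with wildtype therefore turned on which wildtype array was used. With both arrays the median change of the 7 genes was -1.0 in Nemo KO and -0.96 in Cxcr6 KO, with 0 called in either. Without wildtype array 1 the medians were -1.96 and -1.90. That fit sets the genes against wildtype array 2 alone, so these values restate how high that array was. Without wildtype array 2 the medians were 0.10 and -0.13. For Gbp2 in Nemo KO against wildtype the change was -1.64 ± 0.76 (SE; adjusted p = 0.219) with both arrays. It was -3.39 without wildtype array 1 and 0.10 without wildtype array 2.

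In the interaction the median of the 7 genes was 1.06 with 0 called (0% of all genes). It was 1.91 without wildtype array 1 and 0.03 without wildtype array 2. The comparisons that hold no wildtype array gave small values for the same genes. Their median was 0.06 in double KO against Cxcr6 KO and 0.10 in double KO against Nemo KO, with 0 called. The changes of the 7 genes in these comparisons lay between -0.28 and 0.43.

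Markers of other cell types were read beside the GTPase genes, and their part in the result was not tested. The mean of 10 markers of natural killer and natural killer T cells was 5.21 in wildtype array 1 and 5.64 in wildtype array 2, and 5.11 to 5.43 in the other arrays. Of these 10 markers 3 were tested. Ncr1, Klrb1c and Klrk1 were at most 5.0 in every array, below the level filter, so they do not show whether such cells were present. Nkg7 was at 5.76 and 5.86 in the wildtype arrays. Gzma was at 5.05 and 6.14 in the wildtype arrays and Zbtb16, which natural killer T cells need, at 8.68 and 11.43, but Zbtb16 reached 10.73 in Nemo KO and 10.60 in double KO as well. The mean of 8 plasmacytoid dendritic cell markers was 5.48 and 5.77 in the wildtype arrays and 5.49 to 5.68 in the others, with Klk1 1.61 and Irf8 0.63 higher in wildtype array 2 than in wildtype array 1, Siglech at 6.59 and 6.63, and Cox6a2 at 5.23 and 5.08. Macrophage markers averaged 6.40 and 7.62 in wildtype arrays 1 and 2, 7.28 to 8.63 in Nemo KO, 6.86 to 7.13 in Cxcr6 KO and 7.90 to 8.69 in double KO, so their highest means were outside wildtype. Within that list Mpeg1, a pore-forming protein gene of macrophages, was at 8.64 and 13.08 in the wildtype arrays, 12.33 to 12.67 in Nemo KO, 9.37 to 10.01 in Cxcr6 KO and 11.62 to 11.97 in double KO.

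**Figure D4:**
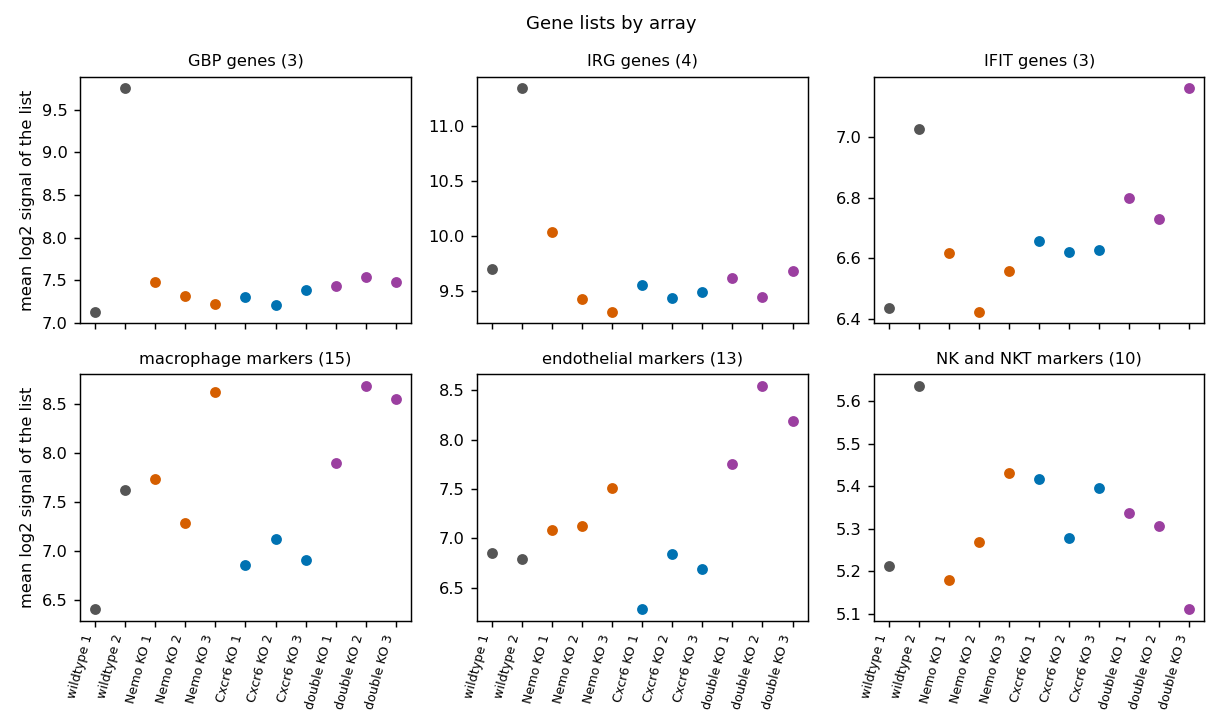
Mean log2 signal of 6 gene lists (vertical axes, each with its own range) in each of the 11 arrays (horizontal axis), with the number of genes in brackets and colours for the 4 genotypes. GBP and IRG genes peak in wildtype array 2 (9.75 and 11.35), whereas macrophage and endothelial markers peak in double KO array 2 (8.69 and 8.54).

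The promoter windows of Gbp2, Gbp7, Igtp, Irgm2 and Irf1 are printed to show what some genes that were highest in wildtype array 2 hold near their start. They come from RefSeq on GRCm38.p6, all on the plus strand: Gbp2 at chr3:142620413-142620712, Gbp7 at chr3:142530086-142530385, Igtp at chr11:58199306-58199605, Irgm2 at chr11:58214727-58215026 and Irf1 at chr11:53769764-53770063. Each runs from 250 bases before to 50 bases after the annotated start, and capitals mark the ISRE core GAAANNGAAA and the GAS element TTCNNNGAA, either one read on both strands. Irf1 has a second annotated start whose window held neither.
Gbp2: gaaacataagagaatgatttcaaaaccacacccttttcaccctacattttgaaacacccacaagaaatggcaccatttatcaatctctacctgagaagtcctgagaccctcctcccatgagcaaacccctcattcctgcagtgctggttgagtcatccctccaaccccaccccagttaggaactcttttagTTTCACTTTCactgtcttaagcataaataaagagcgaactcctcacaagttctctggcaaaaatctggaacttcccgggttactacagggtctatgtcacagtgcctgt
Gbp7: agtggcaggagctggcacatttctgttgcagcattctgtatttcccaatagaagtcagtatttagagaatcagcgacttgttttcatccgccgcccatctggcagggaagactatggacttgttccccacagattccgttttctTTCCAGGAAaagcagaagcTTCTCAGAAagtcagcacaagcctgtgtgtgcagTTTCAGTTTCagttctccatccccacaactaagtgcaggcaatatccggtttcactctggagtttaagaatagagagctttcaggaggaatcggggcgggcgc
Igtp: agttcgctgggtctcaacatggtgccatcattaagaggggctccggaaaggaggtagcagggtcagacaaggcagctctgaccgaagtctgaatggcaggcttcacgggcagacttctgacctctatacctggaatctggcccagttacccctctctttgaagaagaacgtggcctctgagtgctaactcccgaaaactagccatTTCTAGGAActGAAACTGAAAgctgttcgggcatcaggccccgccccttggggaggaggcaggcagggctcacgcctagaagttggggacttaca
Irgm2: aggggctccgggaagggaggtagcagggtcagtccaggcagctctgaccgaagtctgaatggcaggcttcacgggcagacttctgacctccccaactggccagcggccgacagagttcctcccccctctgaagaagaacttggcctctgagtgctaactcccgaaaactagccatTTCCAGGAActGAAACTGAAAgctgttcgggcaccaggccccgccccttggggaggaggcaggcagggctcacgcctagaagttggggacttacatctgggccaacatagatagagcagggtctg
Irf1: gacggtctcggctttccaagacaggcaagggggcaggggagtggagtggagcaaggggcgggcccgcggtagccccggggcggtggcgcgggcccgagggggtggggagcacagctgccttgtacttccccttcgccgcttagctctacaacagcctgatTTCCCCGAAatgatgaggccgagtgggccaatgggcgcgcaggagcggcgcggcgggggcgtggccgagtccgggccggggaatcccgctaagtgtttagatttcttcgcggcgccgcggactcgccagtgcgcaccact

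The ISRE core starts at -59 in Gbp2, -53 in Gbp7, -34 in Igtp and -64 in Irgm2. Igtp and Irgm2, both on chromosome 11, each carry a GAS element with 2 bases between it and the ISRE core, at -45 and -75, and share an identical stretch of 61 bases. Irf1 holds a GAS element at -90 and no ISRE core. Also highest in wildtype array 2 were Irf9, Ddx58, Ifit3, Isg15, Cmpk2, Gbp3 and Irgm1, whose windows are not printed and held no GAS element. Those of Irf9 and Cmpk2 held no ISRE core either. A match is a description of the letters only.

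Over all members, 29 genes had 34 promoter windows. The ISRE core was found in 20 of the 34 windows, or 58.8%, against 3.44% of all 32851 mouse windows of the same length. The GAS element was found in 9 windows, or 26.5%, against 8.30% of all, and both were found in 6, or 17.6%, against 0.450%. The 7 GTPase windows came from 6 genes, as Gbp3 had a second window, with neither motif, and Iigp1 had no window. Of these 7 windows 6 held the ISRE core, 3 a GAS element and 3 both. Of the 27 other member windows 14 held the ISRE core, 6 a GAS element and 3 both. The motifs shared bases in 1 window, that of Bst2. These genes were listed as interferon targets, so the shares describe the list and test nothing.

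Trim12a, a gene of the Trim5 cluster on chromosome 7 whose relatives restrict retroviruses, marked the Cxcr6-deleted line in the opposite direction to Stat2. Its log2 signals were 6.54 and 6.74 in wildtype, 6.67, 6.49 and 6.48 in Nemo KO, 7.61, 7.46 and 7.602 in Cxcr6 KO and 7.85, 7.98 and 7.96 in double KO. All 6 Cxcr6-deleted arrays (7.46 to 7.98) lay above all 5 Cxcr6-intact arrays (6.48 to 6.74), as for 0.725% of all tested genes, and the 3 double KO arrays were the highest. Trim12a rose by 1.38 ± 0.09 (SE; adjusted p = 0.000813) in double KO against Nemo KO, a call that held under each of the 20 alternative settings (adjusted p up to 0.0328). It rose by 0.92 ± 0.10 (SE; adjusted p = 0.0112) in Cxcr6 KO against wildtype. That call was lost without Cxcr6 KO array 2 or 3 (adjusted p = 0.0524 and 0.0618), with array weights (0.0654) and in a fit of these groups alone (0.244).

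The rise in double KO over Cxcr6 KO was smaller, 0.37 ± 0.09 (SE; adjusted p = 0.0438). Its call was lost after quantile normalization (0.25, adjusted p = 0.0968), without any 1 of the Cxcr6 KO arrays (0.0730, 0.135 and 0.110 for arrays 1, 2 and 3), without any 1 of the double KO arrays (0.0538, 0.117 and 0.127) and without Nemo KO array 1 (0.0545). The number of members called in that comparison, 2 with all arrays (7.41% of all genes), moved with the share of all genes called. It was 1 without Nemo KO array 1 (4.14% of all genes) or double KO array 2 (2.94%). Without Cxcr6 KO array 1 (2.89%) or 3 (0.629%) it was 1 as well. Without Cxcr6 KO array 2 (1.1%) or double KO array 3 (1.11%) it was 0. The interaction for Trim12a was 0.47 ± 0.14 (SE; adjusted p = 0.280).

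Of the 5 genes on either side of Trim12a in RefSeq order, Trim5 and Trim12c showed part of this pattern. Olfr649 was not called in the comparisons of Cxcr6-deleted with Cxcr6-intact groups. Olfr648, Trim30b and Trim30c were below the level filter, with overlapping values, and Trim34a, Trim34b and Gm38525 had no row of their own. Trim6 is given below. Trim5, the next gene in RefSeq order, had log2 signals of 6.10 and 6.46 in wildtype, 6.17, 6.03 and 5.97 in Nemo KO, 6.96, 6.67 and 6.76 in Cxcr6 KO and 6.65, 6.95 and 6.92 in double KO. Its Cxcr6-deleted arrays (6.65 to 6.96) were above its Cxcr6-intact arrays (5.97 to 6.46), and it rose by 0.78 ± 0.13 (SE; adjusted p = 0.0473) in double KO against Nemo KO. Trim12c, a near relative of Trim12a, had log2 signals of 7.64 and 7.89 in wildtype, 7.49, 7.47 and 7.42 in Nemo KO, 7.91, 7.88 and 7.89 in Cxcr6 KO and 7.97, 7.93 and 7.95 in double KO. Its Cxcr6-deleted arrays met the intact ones at wildtype array 2, and it rose by 0.49 ± 0.08 (SE; adjusted p = 0.0414) in double KO against Nemo KO. In Cxcr6 KO against wildtype the values were 0.51 ± 0.15 (SE; adjusted p = 0.202) for Trim5 and 0.13 ± 0.09 (SE; adjusted p = 0.661) for Trim12c, neither of them called.

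The calls of Trim5 and Trim12c in double KO against Nemo KO were both lost without any 1 of the Nemo KO or Cxcr6 KO arrays or without double KO array 2 or 3 (adjusted p from 0.0569 to 0.135), and in a fit of these groups alone (0.102 and 0.0979). That of Trim12c was also lost without double KO array 1 (0.0731) or after quantile normalization (0.0502), and that of Trim5 without the filter on low values (0.0521). Trim6, beyond Trim5 on the same side, ran the other way, at 4.49 to 4.65 in Cxcr6-deleted and 4.74 to 5.601 in Cxcr6-intact arrays, with a difference of -0.77 ± 0.15 (SE; adjusted p = 0.0653) in double KO against Nemo KO; it was chosen after its values were seen. Near-identical relatives in this cluster can share array signal, and a sequence difference between mouse lines under a probe cannot be told apart from a difference in RNA here.

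**Figure D5:**
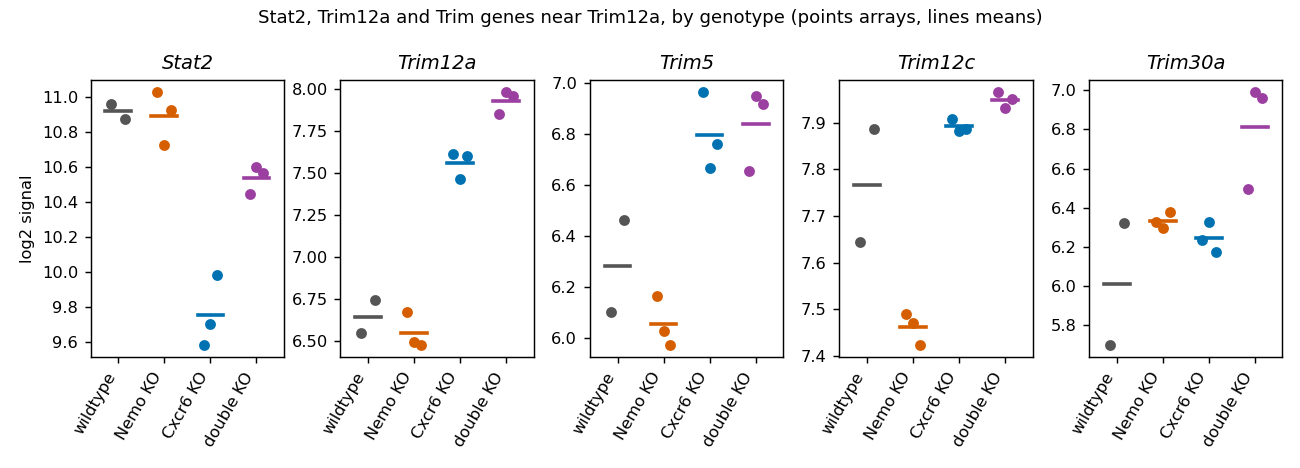
Log2 signal (vertical axes, each with its own range) of Stat2 and of 4 Trim genes in each genotype (horizontal axis); points are arrays and lines are group means. Stat2 is lower in the Cxcr6-deleted groups and Trim12a and Trim5 are higher there, without overlap, whereas Trim30a is highest in double KO alone.

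The Trim12a window, printed as that of the only member higher throughout the Cxcr6-deleted line, spans chr7:104315446-104315745 on the minus strand of GRCm38.p6 and is given on the gene's strand. Its ISRE core, in capitals, starts at base 11 of the transcript, the first base being 1.
Trim12a: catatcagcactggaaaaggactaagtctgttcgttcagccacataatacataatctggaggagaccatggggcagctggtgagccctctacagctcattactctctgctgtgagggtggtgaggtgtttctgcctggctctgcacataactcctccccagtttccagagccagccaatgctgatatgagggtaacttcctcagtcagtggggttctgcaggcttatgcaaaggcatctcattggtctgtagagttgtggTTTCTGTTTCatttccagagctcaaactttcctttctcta

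Trim30a, which dampens NF-kB signalling in macrophages, had log2 signals of 5.70 and 6.32 in wildtype, 6.33, 6.30 and 6.38 in Nemo KO, 6.23, 6.33 and 6.17 in Cxcr6 KO and 6.49, 6.99 and 6.96 in double KO. Trim30a lies near Trim12a on chromosome 7, so the limits given above for shared signal and mouse line hold here too. Its 3 double KO arrays were above all others. Neither the difference from Cxcr6 KO, 0.57 ± 0.17 (SE; adjusted p = 0.0726), nor that from Nemo KO, 0.48 ± 0.17 (SE; adjusted p = 0.223), was called. The difference from Cxcr6 KO was called without either wildtype array, which raised the share of all genes called. It was also called without double KO array 1 (6.85% of all genes called) and with array weights (25.6%). Parp9 and Parp14 encode ADP-ribosyltransferases of the interferon response. Parp14 had log2 signals of 8.67 and 9.37 in wildtype, 9.30, 9.13 and 8.91 in Nemo KO, 8.66, 8.83 and 8.59 in Cxcr6 KO and 8.82, 8.91 and 9.17 in double KO, with the Nemo KO arrays above the Cxcr6 KO arrays and the other groups overlapping both. Parp9 had log2 signals of 9.17 and 8.63 in wildtype, 8.73, 8.59 and 8.26 in Nemo KO, 8.68, 8.70 and 8.84 in Cxcr6 KO and 8.604, 8.39 and 8.84 in double KO, and was 0.55 lower in wildtype array 2 than in wildtype array 1.

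A wider list of 76 other interferon-stimulated genes, of which 60 were tested, was read beside the 41. In double KO against Cxcr6 KO 7 of the 60 were called, all higher, and with Ifngr1 they made 8 of 102 tested genes of the pathway lists, where 3.44% of all genes were called higher. In double KO against Nemo KO the 2 called were Trim5 and Trim12c, where 0.365% of all genes were called higher. Nemo KO against wildtype, Cxcr6 KO against wildtype and the interaction gave 0 of 102.

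Ifi27l2b, a relative of the mitochondrial protein gene Ifi27, had the largest change. Its log2 signals were 7.48 and 11.95 in wildtype, 13.95, 14.89 and 12.82 in Nemo KO, 8.31, 9.25 and 9.58 in Cxcr6 KO and 14.66, 14.50 and 14.89 in double KO. The Nemo KO and double KO arrays lay above all Cxcr6 KO arrays and both wildtype arrays, which were themselves 4.47 apart. It rose by 5.64 ± 0.98 (SE; adjusted p = 0.0176) in double KO against Cxcr6 KO, and the value of 4.17 ± 1.10 (SE; adjusted p = 0.0807) in Nemo KO against wildtype did not pass.

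Ly6e, a membrane protein gene that restricts coronaviruses, had log2 signals of 8.70 and 9.82 in wildtype, 9.88, 10.12 and 9.95 in Nemo KO, 8.51, 8.49 and 8.52 in Cxcr6 KO and 10.14, 9.82 and 9.84 in double KO. The Cxcr6 KO arrays were the lowest, wildtype array 1 came next, and Ly6e rose by 1.43 ± 0.24 (SE; adjusted p = 0.0160) in double KO against Cxcr6 KO. Lgals3bp, a secreted galectin-binding protein gene, rose by 1.45 ± 0.25 (SE; adjusted p = 0.0177) and the nucleic acid sensor gene Ifi204 by 1.82 ± 0.32 (SE; adjusted p = 0.0181). The others called were Samd9l, Sp100 and Slfn2, with rises between 0.57 and 1.10.

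All 8 of these calls were lost without Cxcr6 KO array 2 (adjusted p from 0.0597 to 0.134) and without double KO array 3 (0.0532 to 0.138). Without Cxcr6 KO array 3, 7 were lost (0.0608 to 0.126), without Cxcr6 KO array 1, 5 (0.0513 to 0.0848), without double KO array 2, 5 (0.0518 to 0.0916), without Nemo KO array 1, 4 (0.0506 to 0.0703) and without double KO array 1, 1 (0.0935). In the same comparison 10 of 12 tested endothelial markers, 7 of 9 stellate cell markers and 4 of 15 macrophage markers were called higher. So was 1 of 5 monocyte and dendritic cell markers, where 3.44% of all genes were called higher. No tested marker of hepatocytes, plasmacytoid dendritic cells, natural killer and natural killer T cells, T cells or B cells was called. The mean of the endothelial list was 6.28 to 6.84 in Cxcr6 KO and 7.75 to 8.54 in double KO, and that of the stellate cell list 5.61 to 5.71 and 6.42 to 7.18. The part of these cells in the rises was not tested.

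The gap between the wildtype arrays recurred in the wider list. Wildtype array 2 was over 1 log2 unit above wildtype array 1 for 20 of the 60 genes and below it by that much for 1, with a median difference of 0.56. Cxcl9, an interferon gamma-induced chemokine that attracts T cells, was chosen after its values were seen and had log2 signals of 9.998 and 14.37 in wildtype, 8.89, 7.96 and 9.22 in Nemo KO, 9.20, 8.35 and 8.77 in Cxcr6 KO and 7.54, 7.82 and 7.67 in double KO. Wildtype array 2 was 4.37 above wildtype array 1, which was itself the highest of the remaining 10 arrays, and the 3 double KO arrays were the lowest. The interferon ligand, receptor, JAK-STAT, sensing and negative regulator lists held 0 genes with such a gap, at medians between -0.12 and 0.29.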

How the data were processed

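Hepatocyte RNA of 11 samples in 4 groups was measured on Affymetrix expression arrays. Labelling used the WT Plus kit on 300 ng of RNA per sample, per the labels' protocols. Per the submitters' processing notes, the tools were Affymetrix Expression Console, RMA and Transcriptome Analysis Console; their versions, settings and the genome build were not given in the sources used here. The authors deposited log2 values, already background-corrected and normalized by RMA as far as those notes go, for 65956 array rows, running from 1.79 to 19.93, and these were used without further normalization. RMA pulls arrays to a shared distribution, so a change of all genes at once would not show.

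Rows were named through the platform annotation: 30604 rows had 1 gene symbol, 2146 several and 33206 none. Of the named rows 22818 matched RefSeq by gene identifier, and 827 symbols were updated. Genes whose highest group mean reached 5.27, the median of all row means, were tested. limma 3.58.1 in R 4.3.3 fitted a mean per group over all 11 arrays (7 residual degrees of freedom; prior 2.13), with two-sided moderated tests and Benjamini-Hochberg adjustment over all 18337 tested genes. The fit was tested on simulated data. The members and all gene lists were chosen with earlier results of these data known.

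Values in each array are given for members called in a comparison, for the 3 highest and 3 lowest changes of each comparison, and for the highest mean and widest wildtype gap of each role group. From each other list the called genes, up to 4, or the one with the smallest p are named, with the receptors, Ifnb1, Ifng, Irf3, Socs1 and Ifi27l2b always. Alternatives changed the level filter, the normalization, the choice of row, the variance model, array weights and the arrays fitted.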

Additional observations from a re-analysis of the deposited data

How the results depend on the processing

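Leaving out 1 array at a time, members called ranged from 0 to 5 in Nemo KO against wildtype, 0 to 5 in double KO against Cxcr6 KO, 0 to 9 in Cxcr6 KO against wildtype and 0 to 6 in the interaction. The median change then ranged from -0.41 to 0.16 in Nemo KO against wildtype, -0.42 to 0.0723 in Cxcr6 KO against wildtype and 0.0263 to 0.56 in the interaction. The ends of these medians came from leaving out a wildtype array. The count in double KO against Nemo KO was 1 under every alternative, where 0.06% to 5.3% of all genes were called. With array weights the count was 7 in double KO against Cxcr6 KO (25.6% of all genes) and 0 in Cxcr6 KO against wildtype (0.0873%). In fits of the compared groups alone these were 6 (15.1% of all genes) and 0 (0%). No such fit exists for the interaction, which uses all groups. The labels do not say whether equal replicate numbers pair the samples. Over 15 same-numbered pairs the correlation of deviations ran from -0.27 to 0.28, and 6 were over 0.1. Those 6 were the pairs among wildtype, Nemo KO and double KO with number 1 (0.14 to 0.28) or number 2 (0.11 to 0.22). Whether equal numbers share a batch was not tested. With the replicate number as a block the count was 1 in double KO against Cxcr6 KO (8.22% of all genes). It was also 1 in Cxcr6 KO against wildtype (0.131%). The member calls lost were those of Trim12a (adjusted p = 0.0679 and 0.0600). Calls of Trim5 (0.0938) and Trim12c (0.0847) in double KO against Nemo KO were lost as well. So was that of Samd9l (0.0663) in double KO against Cxcr6 KO. Without wildtype array 1 the sign turned for 7 of 35 members in Nemo KO against wildtype, 6 in Cxcr6 KO against wildtype and 6 in the interaction, and without wildtype array 2 for 11, 12 and 11. Of the values followed under all alternatives 7 turned, with the cause not tested. In Nemo KO against wildtype, leaving out 1 array gave -0.13 to 1.71 for Bst2, -2.34 to 0.25 for Gbp7 and -3.39 to 0.10 for Gbp2, and in Cxcr6 KO against wildtype -0.42 to 1.42 for Bst2, with both ends from the wildtype arrays. In the interaction it gave -0.29 to 0.036 for Irf7 (0.0329 without wildtype array 1, 0.0036 without Cxcr6 KO array 3) and -0.39 to 0.0866 for Xaf1. Centring each array on its median gave 0.0352 for Irf7 and 0.0142 for Dhx58 in the interaction, and the replicate block gave 0.0085 for Irf7. Centring moved the genes called in Nemo KO against wildtype from 0.158% to 7.22% of all, with 0 members called in both, and the median of all genes to -0.12 in Nemo KO against wildtype and to 0.17 in the interaction. The 11 arrays limit the precision, and genes near the level filter lie close to background.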
